A study of Mus musculus with 2 samples.

Results

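The cells described here are the cycling mesenchymal stromal cells (MSC) of intestinal grafts: 512 of 17570 stromal barcodes, taken from 21199 barcodes in all. They were picked by their own transcripts. A barcode counted as cycling when it had at least 500 detected genes, at most 10% of its unique molecular identifiers (UMIs, the tags that count single RNA molecules) on mitochondrial genes, a UMI of at least 2 of Mki67, Top2a, Birc5, Cdk1 and Ube2c, and no UMI of Ptprc (CD45) or Epcam. By this rule 191 cells of the large intestinal graft (LI graft) and 321 cells of the small intestinal graft (SI graft) were cycling.

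Both grafts came from mid-gestation embryos of EYFP (C57BL/6) mice, sired by EYFP males on C57BL/6Nrj females. Each piece of embryonic gut grew beneath the renal capsule of an adult WT host. After 4 weeks the tissue was digested and sorted for live YFP+ Itgb1+ cells lacking CD45, Ter119, BP3, CD31, EpCAM and L1CAM. YFP marks cells of the donor embryo, and no feature in the count files measures it, so host cells could not be identified by transcript. There was 1 library per graft type, with several colonic grafts pooled before sorting. With 1 library a graft, nothing was tested between grafts or between groups of cells, and the intervals given below are exact 95% intervals that cover counting error only. Either a 3′ or a 5′ kit was used, and which one made which library is not given in the sources used here, so kit and graft type cannot be told apart.

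A dividing cell duplicates its DNA in S phase and separates the copies in mitosis (M phase), with the gaps G1 and G2 between them. E2F factors switch on genes for DNA synthesis late in G1, and the MuvB, B-Myb and FoxM1 proteins switch on mitotic genes in G2. The markers used for selection act late in this sequence. Mki67 encodes Ki-67, which coats mitotic chromosomes, and Top2a encodes the topoisomerase that untangles DNA. Birc5 encodes survivin, a subunit of the chromosomal passenger complex, Cdk1 the kinase that drives entry into mitosis, and Ube2c the E2 ubiquitin-conjugating enzyme of the anaphase-promoting complex. In the adult intestine most fibroblasts (FB) and mural cells divide rarely, whereas the gut of an embryo grows by rapid division of its mesenchyme.

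The genes for these markers lie on 4 chromosomes of GRCm38: Mki67 at chr7:135689784-135716361 on the minus strand, Top2a at chr11:98992943-99024189 on the minus strand, Birc5 at chr11:117849251-117855743 on the plus strand, Cdk1 at chr10:69335146-69352938 on the minus strand and Ube2c at chr2:164769898-164778822 on the plus strand. Their promoters are shown because genes of G2 and M phase share a pair of short motifs near the start of transcription. These are the cell cycle genes homology region, searched here as TTTGAA, and the CCAAT box bound by NF-Y, searched as CCAAT, each on both strands, so that TTCAAA and ATTGG on the printed strand are matches too. The 200 bases before the RefSeq start (GRCm38.p6) are given for the 3 markers with at least 2 matches to each motif, in the direction of transcription, with the matches in capitals.
Mki67, chr7:135716380-135716579, minus strand: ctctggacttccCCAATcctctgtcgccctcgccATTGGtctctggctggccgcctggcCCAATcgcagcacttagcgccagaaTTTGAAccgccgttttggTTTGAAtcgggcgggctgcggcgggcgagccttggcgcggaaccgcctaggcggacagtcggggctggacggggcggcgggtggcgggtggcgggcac
Top2a, chr11:99024190-99024389, minus strand: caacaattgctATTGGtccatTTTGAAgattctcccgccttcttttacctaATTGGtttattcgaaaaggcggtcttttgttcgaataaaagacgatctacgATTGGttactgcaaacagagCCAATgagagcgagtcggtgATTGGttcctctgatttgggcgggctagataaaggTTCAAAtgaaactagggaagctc
Cdk1, chr10:69352913-69353112, minus strand: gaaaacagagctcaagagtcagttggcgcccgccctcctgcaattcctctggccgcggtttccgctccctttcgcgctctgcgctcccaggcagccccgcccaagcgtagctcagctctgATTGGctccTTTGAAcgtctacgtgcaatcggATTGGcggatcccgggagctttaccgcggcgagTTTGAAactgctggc

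Mki67 held 2 matches to TTTGAA and 3 to CCAAT, Top2a 2 and 5, and Cdk1 2 and 2. In Cdk1 the TTTGAA matches began 71 and 15 bases before the start. Ube2c held 1 match to TTTGAA and 5 to CCAAT, 2 of which overlap each other, and Birc5 held neither motif in this window. Over all 32851 promoters of this length, 12.5% held TTTGAA, 29.3% held CCAAT and 3.7% held both. Among lists of cell cycle genes described below, CCAAT was found in 7 of 8 promoters of mitotic kinase genes (87.5%), 10 of 12 of replication licensing genes (83.3%), 9 of 13 of spindle genes (69.2%), 8 of 12 of kinetochore genes (66.7%) and 9 of 19 of genes of DNA synthesis (47.4%). It was found in 1 of 5 promoters of pericyte marker genes (20%) and 1 of 11 of fibrillar collagens and their partners (9.1%). TTTGAA was found in 6 of 13 promoters of spindle genes (46.2%), while the other lists ranged from 0 of 8 for the mitotic kinases to 2 of 11 for the collagens (18.2%). Letters alone do not show that a factor binds there.

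In the LI graft, the selection markers were found in 80.6% (Mki67), 79.1% (Top2a), 77.5% (Birc5), 71.7% (Cdk1) and 71.7% (Ube2c) of cycling cells. The shares for the SI graft were 73.8%, 64.2%, 64.8%, 60.7% and 65.4%. Single cells held up to 61 UMIs of Ube2c in the LI graft and up to 70 in the SI graft. These values are what the rule selected on and describe the selection. Smooth muscle cells (SMC), of which 1.07% and 3.24% were cycling, held a UMI of Mki67 in 1.95% (LI graft) and 3.89% (SI graft) of cells and of Cdk1 in 3.73% and 6.70%. The cycling share of SMC in the SI graft is about that of FB (3.34%), so SMC give no background level there.

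Cells were not spread evenly over the number of markers. In the LI graft, 48 cells had exactly 2 markers, 30 had 3, 24 had 4 and 89 had all 5. The numbers for the SI graft were 139, 48, 36 and 98, so cells at the threshold made up the largest group there. Just outside the threshold, 670 cells of the LI graft and 666 of the small intestinal one had exactly 1 marker. A list of 26 other genes of G2 and M phase, none of them a selection marker, gave a summed level of 39.4 CPM (UMIs of the genes scaled to the same total in every group of cells) over LI graft cells with 0 markers, 114 with 1, 1117 with 2, 2926 with 3, 4051 with 4 and 7390 with 5. Over SI graft cells the levels were 50.1, 125, 787, 2808, 4954 and 6813 CPM. The 24-gene list of S phase went from 227 CPM with 0 markers to 541 with 2 and 1781 with 5 in the LI graft, and from 218 to 611 and 2245 in the SI graft. Cells just inside the threshold thus lay between the others on both lists, and 15 of the 48 2-marker cells of the LI graft (31.2%) and 34 of the 139 of the SI graft (24.5%) had no UMI of any of the 26 genes.

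**Figure D1:**
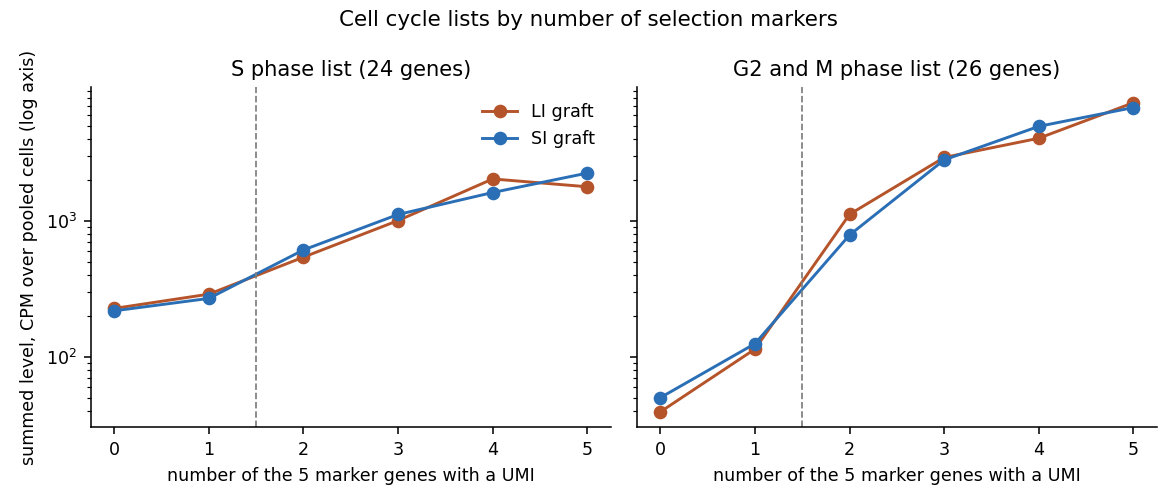
Summed level of the S phase list (left) and of the G2 and M phase list (right), in CPM over pooled cells on a log axis, against the number of the 5 selection markers with a UMI; points are the cells of 1 library pooled and the dashed line marks the threshold of 2 markers. The G2 and M list climbs from 39.4 to 7390 CPM (LI graft) and from 50.1 to 6813 CPM (SI graft), and with 1 marker it lies at 114 and 125 CPM, far below the cells with 2.

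Cycling cells made up 1.96% of stromal cells in the LI graft (191 of 9766, interval 1.69 to 2.25%) and 4.11% in the SI graft (321 of 7804, 3.68 to 4.58%). Cycling cells were the deeper ones, with a median of 8348 UMIs against 5174 in cells with 0 markers (non-cycling cells below) in the LI graft, and 10781 against 5439 in the small intestinal one. Because a deep cell is more likely to show 2 markers, every cell was thinned at random to 2000 UMIs. Then 1.27% (115 of 9051, 1.05 to 1.52%) of LI graft cells and 1.97% (143 of 7273, 1.66 to 2.31%) of SI graft cells passed, with 715 and 531 shallower cells left out. At 1000 UMIs the shares were 1.02% and 1.35%, and at 4000 UMIs 1.81% and 3.20%. The SI graft was the higher at each depth, by a smaller factor than without thinning.

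More cycling cells than others had a high doublet score, which is given to barcodes that resemble a simulated mixture of cells. A cut was set to remove 0.8% of barcodes for every 1000 barcodes in the library. Above it lay 28.8% of cycling and 9.37% of non-cycling cells in the LI graft, and 23.7% and 6.18% in the small intestinal one. Removing all barcodes above it left shares of 1.55% (136 of 8792) and 3.39% (245 of 7227). How many of these barcodes held more than 1 cell was not tested. Median mitochondrial shares were 2.49% in cycling and 2.60% in non-cycling cells of the LI graft, and 2.09% and 2.37% in the small intestinal one. Barcodes with a Ptprc or Epcam UMI and at least 2 markers, which the rule left out, numbered 7 and 20, and the libraries shared 26 barcode sequences, none of them of a cycling cell.

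The cells were spread over S phase and mitosis, with more of them on the mitotic side. The selection markers are themselves mostly genes of G2 and M phase. Thinned to 2000 UMIs, 133 of 182 cycling cells of the LI graft (73.1%, 66.0 to 79.4%) had more UMIs of the G2 and M list than of the S list, 28 (15.4%, 10.5 to 21.5%) had more of the S list, and 16 had no UMI of either. In the SI graft, 182 of 313 (58.1%, 52.5 to 63.7%) were on the G2 and M side, 86 (27.5%, 22.6 to 32.8%) on the S side and 38 had neither. Without thinning, the S side held 21.5% and 35.2%. Many cells were close to the line: 71 of 182 and 151 of 313 had counts of the 2 lists within 3 UMIs of each other.

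Genes of S phase were also found in cells outside the rule, counted here without matching depth. At least 5 genes of the S list were found in 103 of 191 cycling cells of the LI graft (53.9%) and 168 of 321 of the SI graft (52.3%), but also in 65 of 670 (9.70%) and 48 of 666 (7.21%) cells with 1 marker, and in 198 of 8905 (2.22%) and 109 of 6817 (1.6%) non-cycling cells. The intervals of the share on the S side overlapped between classes. In the LI graft it was 15.7% (9.89 to 23.3%) of cycling FB and 14% (5.30 to 27.9%) of cycling pericytes. In the SI graft it was 30.4% (23.9 to 37.4%) and 26.2% (17 to 37.3%).

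**Figure D2:**
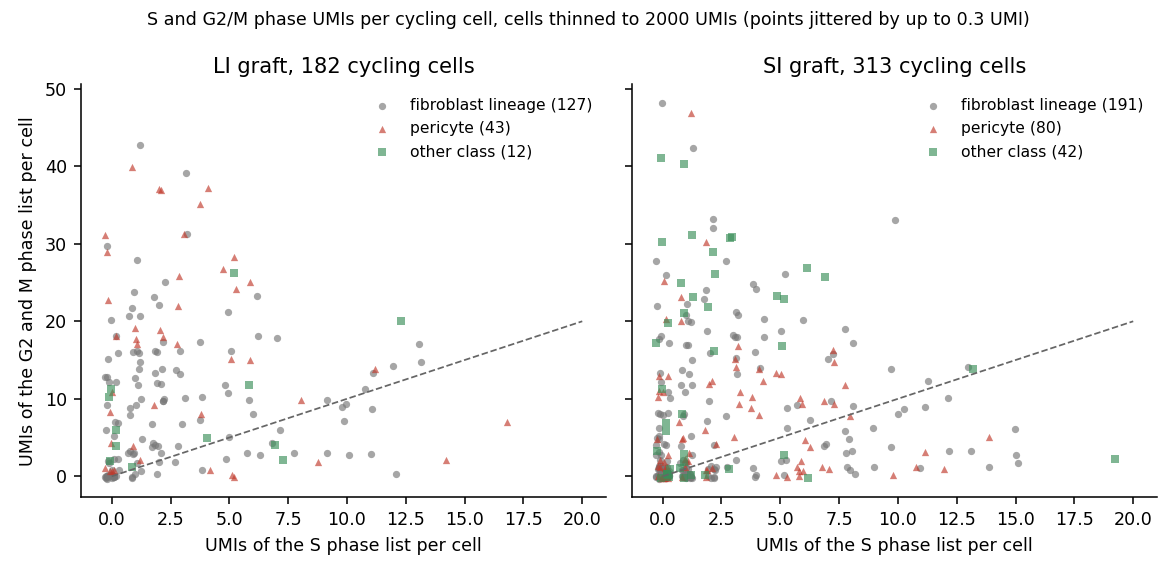
UMIs of the S phase list (horizontal) against UMIs of the G2 and M phase list (vertical) in each cycling cell with at least 2000 UMIs, thinned to 2000; each point is 1 cell, jittered by up to 0.3 UMI, with shape and colour giving its class, and the dashed line marks equal counts. Of 182 cells in the LI graft 28 lie below the line, and of 313 in the SI graft 86 do; fibroblasts and pericytes overlap throughout.

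To find which stromal class the cycling cells belonged to, non-cycling cells alone were clustered without cell cycle genes, and each cycling cell took the class of most of its 20 nearest non-cycling cells. On average 88.6% (LI graft) and 83.8% (SI graft) of those neighbours were of 1 class. Most cycling cells were FB, the matrix-producing cells of the stroma: 132 of 191 in the LI graft (69.1%, 62.0 to 75.6%) and 199 of 321 in the SI graft (62.0%, 56.4 to 67.3%). Pericytes, the mural cells of capillaries, were the next class, with 44 (23.0%, 17.3 to 29.7%) and 80 (24.9%, 20.3 to 30%) cells. Among non-cycling cells of the same depth, pericytes made up 4.20% and 8.26% and FB 86.0% and 77.3%.

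Of all pericytes, 7.07% were cycling in the LI graft (44 of 622, 5.19 to 9.38%) and 10.4% in the SI graft (80 of 771, 8.31 to 12.7%). Of all FB, 1.68% (132 of 7841, 1.41 to 1.99%) and 3.34% (199 of 5963, 2.90 to 3.82%) were cycling. The pericyte share was thus 4.20 times (3.02 to 5.85) that of FB in the LI graft and 3.11 times (2.43 to 3.99) in the SI graft. Thinned to 2000 UMIs, it was 4.90% against 1.08% in the LI graft and 5.89% against 1.51% in the small intestinal one. Cycling SMC were few, 6 of 563 (1.07%, 0.392 to 2.31%) and 15 of 463 (3.24%, 1.82 to 5.29%). A cluster of 556 cells of the SI graft with markers of both pericytes and SMC, led by Nrip2, Rcan2 and Pcp4l1, was left unnamed, and 25 of its cells (4.50%) were cycling. The SMC of the LI graft took in a cluster of 92 cells, 1 of them cycling, whose leading genes also included these 3 and no SMC marker, so the SMC classes of the grafts are not alike. With pericytes, SMC and the unnamed cluster merged, 50 of 1185 cells (4.22%) and 120 of 1790 (6.70%) were cycling.

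These class counts depended on how classes were made. When cycling cells were clustered together with the rest, 104 of the 191 in the LI graft gathered in 1 cluster of 105 cells with FB markers, which put 86.9% of cycling cells into FB and brought the pericyte to FB ratio to 1.21. In the SI graft 146 gathered in a cluster of 270 cells named pericyte, which put 28.7% into FB and brought the ratio to 11.9. The projection had assigned 69 of those 104 to FB and 29 to pericytes, and 72 of the 146 to FB and 56 to pericytes.

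**Figure D3:**
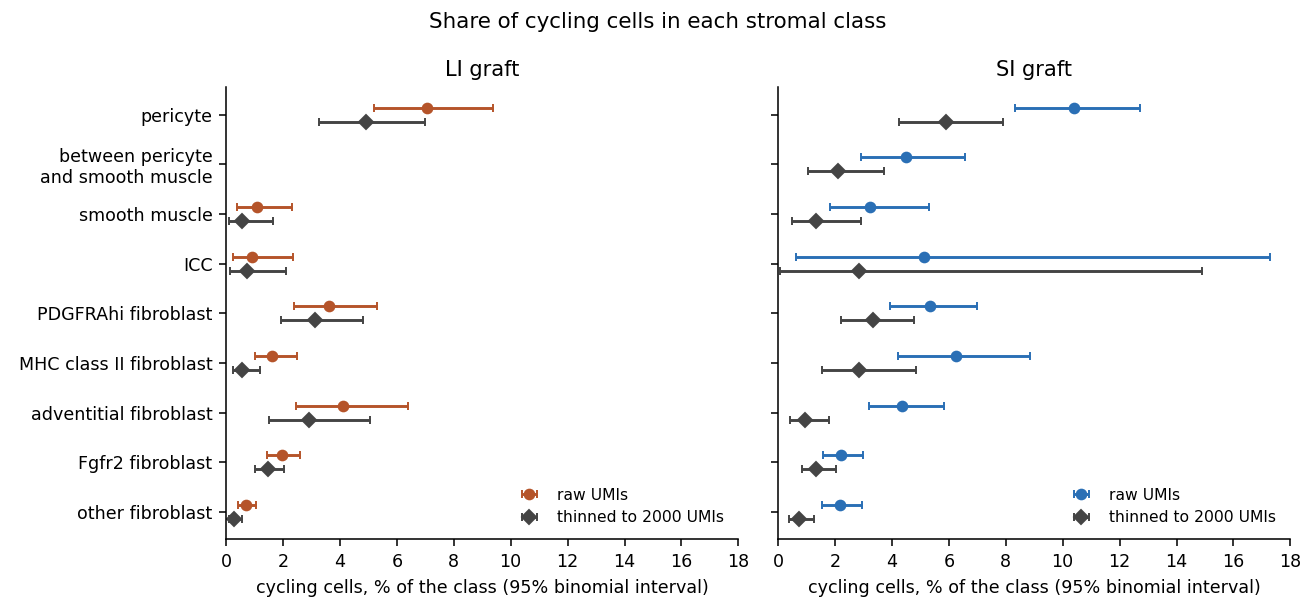
Percentage of each stromal class that was cycling in the LI graft (left) and SI graft (right), with exact 95% binomial intervals; coloured circles use all UMIs and dark diamonds cells thinned to 2000 UMIs. Pericytes are the highest named class with more than 50 cells in both grafts, at 7.07% and 10.4%, and at 4.90% and 5.89% after thinning. The Sox6-led FB cluster of the SI graft, merged here into PDGFRAhi FB, was at 5.90% after thinning.

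Cells assigned to pericytes expressed the pericyte genes. The class was named by these genes, and they were not left out of the clustering, so their presence follows in part from the assignment. The levels within classes given here are not matched for depth, and cycling pericytes had medians of 6934 and 12769 UMIs against 4086 and 4067 in non-cycling ones. Rgs5, a regulator of G protein signalling that marks pericytes, stood at 3159 CPM in cycling and 4199 CPM in non-cycling pericytes of the LI graft, and at 2943 and 4620 CPM in the SI graft, and 97.7% and 98.8% of the cycling ones had a UMI of it. Ndufa4l2, a mitochondrial protein, was at 879 against 1061 CPM and 1033 against 1057 CPM. Notch3, the receptor of mural cells, was at 337 against 385 CPM in the LI graft and lower, at 240 against 448 CPM, in the SI graft. Cspg4, which encodes the proteoglycan NG2, was at 198 against 191 CPM in the LI graft and higher, at 208 against 132 CPM, in the SI graft. Kcnj8, a potassium channel subunit, was at 283 against 443 CPM in the LI graft and at 354 against 336 CPM in the SI graft, and its partner Abcc9 at 167 against 317 CPM and 204 against 252 CPM. Higd1b was at 72.4 against 117 CPM and 168 against 268 CPM. Over all cycling cells, with depth and class weighted, the log2 ratios in the SI graft were 0.38 (0.12 to 0.64) for Abcc9, 0.02 (-0.25 to 0.30) for Higd1b and -0.07 (-0.30 to 0.16) for Notch3. In the LI graft Abcc9 was at -0.47 (-0.81 to -0.15) and Kcnj8 at -0.43 (-0.68 to -0.17), while Kcnj8 was at 0.40 (0.20 to 0.60) in the SI graft. Rgs5, weighted in the same way, was at -0.09 (-0.18 to 0.01) and -0.15 (-0.21 to -0.08). These ratios pool all classes, so they do not give the difference within pericytes.

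FB genes in these cells lay below the levels in FB. Dcn, the collagen-binding proteoglycan decorin, was at 1115 CPM in cycling pericytes against 2667 CPM in non-cycling ones of the LI graft and at 744 against 1649 CPM in the SI graft, and 1 cell supplied 42.7% and 18% of its UMIs. Pdgfra, the platelet-derived growth factor receptor of FB, was at 34.6 and 20 CPM. Col1a1 did not follow Dcn, at 1084 against 1057 CPM and 1650 against 1355 CPM, and Col3a1 was at 2542 against 3491 CPM and 2535 against 3931 CPM. At least 3 of the 7 FB markers were found in 97.7% and 95% of cycling and in 83.7% and 84.2% of the shallower non-cycling pericytes. Acta2, smooth muscle actin, was higher in cycling pericytes, at 2936 against 2193 CPM and 6448 against 3729 CPM.

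Several FB genes were lower in cycling than in non-cycling FB as a whole, again without matching. Dcn stood at 8172 CPM in cycling against 14327 CPM in non-cycling FB of the LI graft and at 8317 against 16904 CPM in the SI graft. Col3a1, a fibrillar collagen chain, was at 8760 against 10958 CPM and 7412 against 14526 CPM, and Dpt (dermatopontin) at 367 against 655 CPM and 376 against 1210 CPM. Pdgfra differed less, at 176 against 190 CPM and 235 against 301 CPM. In the PDGFRAhi FB of the LI graft these genes were mixed. Col1a1 was at 4067 CPM in cycling against 3127 CPM in non-cycling cells, Lum (lumican) at 1970 against 1179 CPM and Dcn at 4387 against 4247 CPM. Col3a1 (7809 against 8457 CPM), Dpt (228 against 299 CPM) and Pdgfra (487 against 557 CPM) were lower in cycling cells there. At least 3 of the 7 FB markers were found in all 132 cycling FB of the LI graft and in 195 of 199 of the SI graft. The FB class was named with these markers too.

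Some contractile genes were higher in cycling FB, here without matching for depth or subset. Acta2 was at 1217 against 453 CPM in the LI graft and 1942 against 506 CPM in the SI graft, with a UMI in 71.2% and 84.9% of cycling against 38.0% and 43.6% of non-cycling FB. Actg2, the actin of visceral muscle, was at 97.7 against 44.8 CPM and 255 against 45.8 CPM, and Tagln (transgelin) at 1539 against 890 CPM and 1368 against 628 CPM. Over all cycling cells, with depth and class weighted, the log2 ratios of Acta2 were 0.44 and 0.13 and those of Tagln -0.25 and -0.47. These ratios pool FB with pericytes and SMC, so they do not give FB alone. Within FB subsets, not matched for depth, Acta2 was higher in cycling cells of all but the PDGFRAhi FB of the LI graft. In the SI graft it ranged from 2246 against 1684 CPM in PDGFRAhi FB to 2307 against 236 CPM in the subset highest on adventitial genes. The other SMC genes of cycling FB were mixed, with Myh11 (smooth muscle myosin) at 28.6 against 27.7 CPM and 70.6 against 48.0 CPM and Synpo2, an actin-binding protein, at 9.77 against 14.6 CPM and 15.1 against 17.1 CPM. One cell supplied 28.6% (LI graft) and 13.1% (SI graft) of the Actg2 UMIs. At least 3 of the 8 SMC markers were found in 51.5% and 75.4% of cycling against 27.8% and 35.7% of non-cycling FB, and at least 3 of the 7 pericyte markers in 6.06% and 8.54% against 3.84% and 5.34%. Contractile genes went the other way in the PDGFRAhi FB of the LI graft, with Acta2 at 691 CPM in cycling against 1214 CPM in non-cycling cells, Tagln at 234 against 1164 CPM and Actg2 at 10.2 against 55.0 CPM. Tagln was also lower in cycling PDGFRAhi FB of the SI graft, at 1247 against 2189 CPM. In the remaining SI graft subsets it was higher in cycling cells, from 477 against 424 CPM in Fgfr2 FB to 1910 against 378 CPM in the subset highest on adventitial genes. Within the other FB subsets of the LI graft, Tagln was higher in cycling cells of the MHC class II subset alone, at 3047 against 1353 CPM. One cell supplied 30.2% of its UMIs in those cycling cells. That subset merged clusters of 643 cells each, and 17 of its 21 cycling cells lay in the one led by H2-Ab1. The part of this in the level was not tested. The shares of cells with markers are not matched for depth, and cycling cells were the deeper. Doublet scores above the cut were found in 33.3% and 26.6% of cycling FB and in 18.2% and 20% of cycling pericytes, and their part in the Acta2 levels was not tested.

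**Figure D4:**
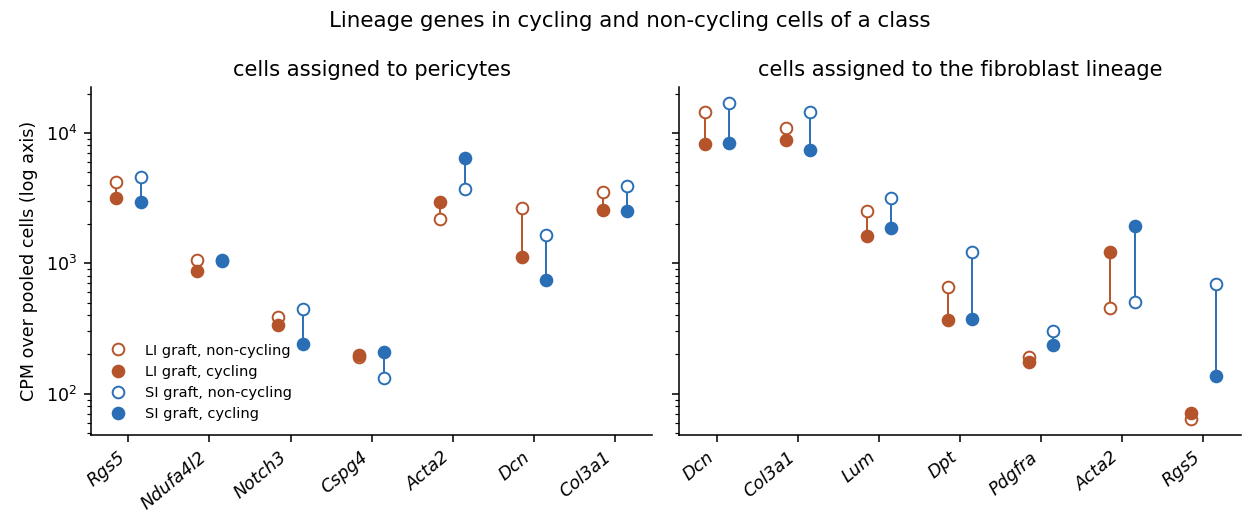
Levels of lineage genes, in CPM over pooled cells on a log axis, in cells assigned to pericytes (left) and to FB (right); filled circles are cycling and open circles non-cycling cells, joined by a line for each graft, with no matching for depth. Dcn and Col3a1 are lower and Acta2 higher in cycling cells of both classes and both grafts, and Rgs5 lies between 2943 and 4620 CPM in cells assigned to pericytes.

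Within FB, the subset high on Bmp3, Bmp5, Bmp7 and Sox6, the genes of the PDGFRAhi FB that line the epithelium, had a cycling share of 3.63% in the LI graft (25 of 688, 2.37 to 5.32%) and 5.33% in the SI graft (48 of 901, 3.95 to 7.0%). After thinning the shares were 3.14% and 3.33%. The SI graft had 2 such clusters, led by Sox6 with 8.59% cycling (33 of 384) and by Wif1, a secreted Wnt inhibitor, with 2.90% (15 of 517). Thinned, they were at 5.90% and 1.59%, against 5.89% in pericytes of the SI graft. Genes of the PDGFRAhi class differed in direction. Bmp7, a bone morphogenetic protein, was at 264 CPM against 218 CPM in non-cycling ones of the LI graft and 343 against 275 CPM in the SI graft, and Foxl1, a transcription factor of these cells, at 50.8 against 47.1 CPM and 54.6 against 27.4 CPM. Sox6 was at 152 against 261 CPM and 160 against 193 CPM. Bmp5 was lower in cycling cells of the LI graft, at 173 against 393 CPM, and so was F3, which encodes tissue factor, at 127 against 315 CPM. In the SI graft Bmp5 was at 205 against 177 CPM and F3 at 242 against 149 CPM. The Sox6-led and Wif1-led clusters are merged in these SI graft levels, and 33 of the 48 cycling cells lay in the Sox6-led one. The part of this in the levels was not tested.

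Fgfr2 FB, led by Adamdec1, Edil3 and Agt, made up the most cycling FB of any subset in the LI graft, 47 of 2403 cells (1.96%), and 39 of 1772 (2.20%) in the SI graft. FB with MHC class II genes had 21 of 1286 (1.63%) and 29 of 464 (6.25%), and 0.577% and 2.85% after thinning. In the LI graft 643 of these cells formed a cluster led by Areg and Ereg, with no MHC class II gene among its 10 leading genes and 4 cycling cells (0.622%). The cluster led by H2-Ab1, H2-Aa and Cd74 had 17 of 643 (2.64%). The subset highest on adventitial genes was led by Cthrc1 and Prg4 in the LI graft, with no adventitial marker among its 10 leading genes, where it had 18 of 439 cycling cells (4.1%), and by Pi16 and Igfbp6 in the SI graft, where it had 43 of 984 (4.37%). Thinning left 2.93% and 0.952%, and 27 of the 43 had only 2 markers. The remaining FB had the lowest shares, 21 of 3025 (0.694%) and 40 of 1842 (2.17%). Raw shares of these subsets moved with depth: cycling cells of the Cthrc1-led subset had a median of 21971 UMIs, and those of the Pi16-led subset 15146.

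Other classes held few cycling cells. Interstitial cells of Cajal, the pacemaker cells of gut muscle, had 4 of 433 in the LI graft, where 140 cells, none of them cycling, formed a cluster led by Lcn2 and Hand1 with no marker of the class among its 10 leading genes, and 2 of 39 in the small intestinal one, and mesothelial cells 0 of 24 (interval up to 14.2%). A cluster of 257 barcodes in the LI graft, led by kidney tubule genes, among them Slc34a1 and Miox, and with few UMIs, took in 4, and an immune-like cluster 1. Over all cycling cells, the 4 kidney tubule markers and 5 erythroid markers were at 0 CPM in the LI graft and at 1.78 and 0.254 CPM in the SI graft. Immune markers summed to 55.1 CPM in cycling and 56.9 CPM in non-cycling cells of the LI graft, and 56.6 and 51.9 CPM in the SI graft, with Cd3e at 0. At least 3 of the 9 immune markers were found in 7 and 11 cycling cells, with up to 5757 and 10198 CPM in a single cell. Endothelial markers summed to 21.6 and 24.4 CPM in cycling cells, with Cdh5 at 0, and glial or neuronal ones to 5.4 and 2.03 CPM, with Sox10 at 0. Epithelial markers summed to 10.3 and 14.2 CPM, with 7382 CPM in 1 cell of the SI graft, and mesothelial ones to 22.1 and 27.7 CPM.

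For each gene, CPM pooled over cycling cells was then set against non-cycling cells weighted to the same depth, as the log2 of the ratio with 5 CPM added to both sides. The 7 cycling cells of the SI graft that were too deep to be matched were left out. With class weighted too, 2 LI graft cells and 14 SI graft cells had no match and were left out. Genes with at least 10 CPM on 1 side numbered 8933 in the LI graft and 9079 in the small intestinal one. Of these, 5.96% (532) were at least 2-fold higher and 1.14% (102) at least 2-fold lower in cycling cells of the LI graft, and 5.20% (472) and 2.90% (263) in the small intestinal one. The median gene was at 0.06 and 0.10. In what follows, counts of list genes past 2-fold are over the genes that reached 10 CPM, called measured, and list medians are over all genes of the list. Across 11 lists of cell cycle genes, 114 of 121 genes reached 10 CPM in the LI graft, 112 of them at least 2-fold higher, and 115 did in the SI graft, 113 of them at least 2-fold higher, with none 2-fold lower. The selection rests on co-expressed genes of the same contrast, so these ratios describe the selected cells. The lists made up 21.1% and 23.9% of all genes 2-fold higher.

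Replication licensing genes, which load the helicase onto origins, were 14 of 14 measured genes at least 2-fold higher in the LI graft and 13 of 14 in the small intestinal one, with medians of 1.79 and 1.86. Mcm5, a helicase subunit, was at 52.4 CPM in cycling against 2.79 CPM in non-cycling cells of the LI graft (log2 ratio 2.88, 2.45 to 3.33) and at 49.4 against 3.33 CPM in the SI graft (2.71, 1.96 to 3.64). Gmnn, whose product geminin stops origins from being licensed again, was at 78.3 against 2.77 CPM (3.42) and 67.2 against 3.63 CPM (3.06). Orc6, a subunit of the origin recognition complex, had the smallest ratio of those past 10 CPM, 1.02 and 0.94.

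The 15 genes of nucleotide supply and DNA synthesis were all at least 2-fold higher in both grafts (medians 2.19 and 2.02). Tk1, the thymidine kinase of S phase, was at 163 against 1.41 CPM in the LI graft (4.71) and 114 against 1.42 CPM in the SI graft (4.21). Rrm2, the ribonucleotide reductase subunit made in S phase, was at 143 against 3.21 CPM (4.17) and 82.2 against 2.12 CPM (3.61). Pcna, the sliding clamp of DNA polymerase, was well expressed in non-cycling cells too, at 31.9 and 33.0 CPM, and its ratios were 1.38 and 1.43. Tk1 and Rrm2 were thus near 0 outside the cycling cells, and Pcna was not. All 7 measured genes of DNA repair and checkpoint were past 2-fold (medians over all 10 listed 2.34 and 1.84), Clspn, the checkpoint adaptor claspin, standing at 3.31 and 3.39. Of the E2F, B-Myb and FoxM1 regulators, 5 of 5 and 6 of 6 were past 2-fold, with Foxm1 itself at 43.7 against 1.15 CPM (2.99) and 35.5 against 1.6 CPM (2.62).

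Kinetochore and spindle genes had the highest medians of the lists by role. All 12 kinetochore genes, whose products fasten chromosomes to the spindle, were past 2-fold in both grafts, with medians of 4.36 and 3.65. Cenpf was at 598 against 1.22 CPM in the LI graft (6.6, 6.22 to 7.0) and 394 against 1.26 CPM in the SI graft (6.00, 5.50 to 6.54), and Cenpa, the histone variant of centromeres, at 477 against 4.92 CPM (5.60) and 356 against 6.34 CPM (4.99). The 14 genes of spindle motors and organisers were likewise all past 2-fold (medians 4.26 and 3.76). Prc1, which bundles microtubules at the spindle midzone, was at 444 against 1.44 CPM (6.12) and 297 against 2.53 CPM (5.33), and Hmmr, a spindle pole protein, at 239 against 0.137 CPM (5.57) and 173 against 0.315 CPM (5.07).

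The remaining lists of mitosis and chromosome structure had lower medians. Mitotic kinases and the passenger complex had 10 of 10 genes past 2-fold (medians 3.58 and 3.32), with Cdca8 (borealin), the partner of Birc5, at 5.35 and 5.02. Cyclins of S and M phase had 8 of 9 and 10 of 10, the exception being Ccne1, the cyclin of S phase entry, at 0.86 in the LI graft and 1.46 in the small intestinal one, while Ccnb2 reached 5.18 and 4.69. Condensin and chromosome structure had 12 of 12 (2.90 and 2.52), with Hmgb2, a chromatin protein, at 1020 against 62.3 CPM (3.93) and 726 against 62.8 CPM (3.43). Tubulins and stathmin had 6 of 6 (1.85 and 1.87), with Stmn1, which destabilises microtubules, at 1372 against 26 CPM (5.47) and 1082 against 49.3 CPM (4.32). Anaphase and cytokinesis had 9 of 10 and 8 of 9 (3.42 and 3.08), with Cdc20, the activator of the anaphase-promoting complex, at 5.44 and 5.04. The exception was Pttg1, which encodes securin, the guard of sister chromatids: it was at 57.8 against 57.2 CPM in the LI graft (0.01, -0.26 to 0.28) and 53.2 against 58.9 CPM in the SI graft (-0.14, -0.38 to 0.11).

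Regulators of G1 did not follow. Of 6 G1 cyclins and kinases, 1 was past 2-fold in the LI graft (Cdk2, 1.20) and 0 in the SI graft, with medians of 0.23 and 0.45. Ccnd2, a D-type cyclin, was lower in cycling cells, at 88.5 against 140 CPM (-0.63, -0.85 to -0.42) and 112 against 169 CPM (-0.58, -0.74 to -0.42), with class-weighted ratios of -1.07 and -0.86, and Cdk4, the kinase it activates, was higher, at 231 against 169 CPM (0.43) and 247 against 146 CPM (0.73). Ccnd1 stood at 0.61 and 0.60, but 1 LI graft cell supplied 22.2% of its UMIs, and with class weighted too it was at -0.40 (-0.74 to -0.07) and 0.27.

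Among 15 inhibitors of the cycle, 3 were at least 2-fold higher in both grafts. These were Cdkn2c, which encodes the Cdk4 and Cdk6 inhibitor p18, at 145 against 22.2 CPM (2.46, 2.26 to 2.66) and 97.2 against 20 CPM (2.03, 1.72 to 2.36), Cdkn2d, which encodes p19, at 175 against 37.9 CPM (2.07) and 117 against 38.9 CPM (1.48), and Rbl1, the retinoblastoma relative p107, at 1.73 and 2.12. Gas1, a growth arrest gene, was at 195 against 385 CPM (-0.96) and 104 against 225 CPM (-1.07), past 2-fold in the SI graft only, and at -0.48 and -0.67 once non-cycling cells were weighted by class as well. Cdkn1c (p57) was at -0.61 and -0.76, and Cdkn1b (p27) at 0.51 and 0.19. Cdkn1a (p21) pointed opposite ways, at 0.28 (0.14 to 0.42) for the LI graft but -0.61 (-0.75 to -0.47) for the SI graft. With class weighted it was at 0.07 (-0.09 to 0.22) and -0.92, so the LI graft ratio was no longer apart from 0.

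**Figure D5:**
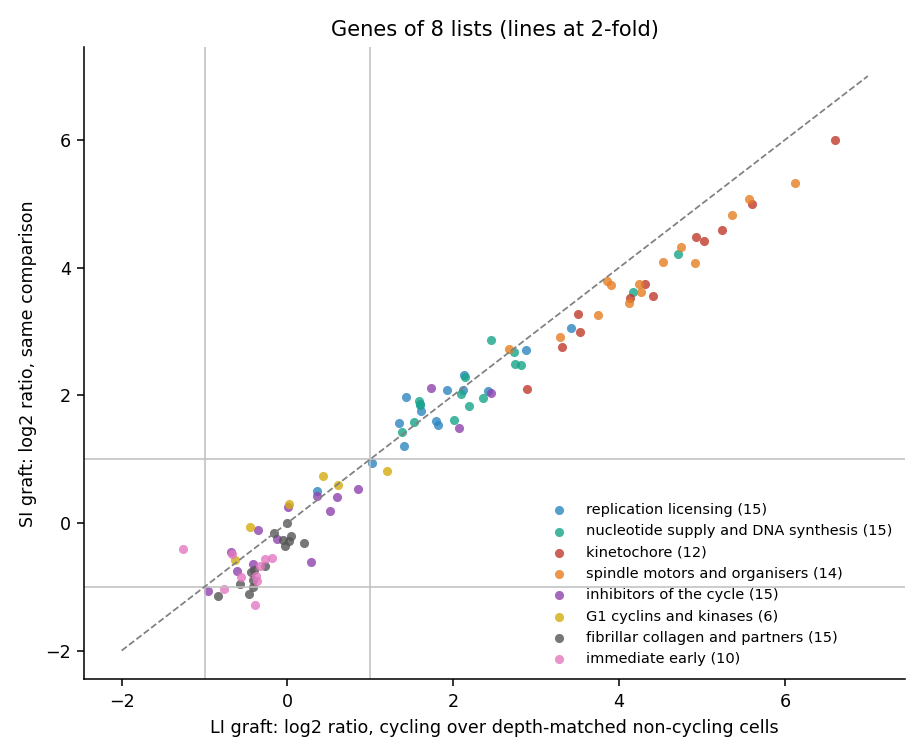
Log2 ratio of each gene of 8 lists, cycling over depth-matched non-cycling cells, in the LI graft (horizontal) and in the SI graft (vertical); each point is 1 gene, grey lines mark 2-fold and the dashed line equal ratios. Kinetochore and spindle genes reach 6.6 and 6.00, genes of licensing and DNA synthesis lie mostly between 1 and 3, collagens lie mostly around or below 0, immediate early genes below 0, and G1 cyclins and kinases between -0.63 and 1.20.

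Most genes of the stromal matrix differed by less than 2-fold. Of 15 fibrillar collagens and partners, 0 were past 2-fold in the LI graft (median -0.27) and 2, Dcn and Col14a1, were 2-fold lower in the SI graft (median -0.67). Col1a1 was at 4175 against 5657 CPM (-0.44) and 4037 against 6889 CPM (-0.77), whereas Col6a3 was at -0.01 and 0.00. Weighted by class too, Col1a1 stood at -0.21 and -0.47 and Dcn at -0.52 and -0.90. All 10 immediate early genes, which respond within minutes to stimuli and to tissue digestion, had ratios below 0 (medians -0.39 and -0.75), with Fos at 4249 against 5480 CPM (-0.37) and 2991 against 5610 CPM (-0.91). Of these, Ier3 in the LI graft (-1.26) and Ier2 and Atf3 in the SI graft (-1.03 and -1.28) were past 2-fold.

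Growth signals showed few differences. None of 11 measured growth factor receptors was past 2-fold in either graft (medians -0.23 and -0.24). Pdgfrb, the platelet-derived growth factor receptor of mural cells, was at 0.79 and 0.80, and at -0.10 and 0.12 when class was weighted too. Of stromal growth factors, 3 of 12 were 2-fold lower in the LI graft, Fgf2 (-1.21), Fgf7 (-1.04) and Fgf10 (-1.03), and 0 of 11 in the SI graft, where they stood at -0.99, -0.26 and 0.06. With class weighted too, none of the 3 was past 2-fold in the LI graft (-0.83, -0.72 and -0.99). No ribosome biogenesis gene was past 2-fold (11 measured, medians -0.06 and 0.45), and Myc, a driver of growth, was lower at -0.40 and -0.91. The 12 interferon response genes and 5 measured hedgehog pathway genes had 0 past 2-fold (medians 0.05 and -0.20, and 0.34 and 0.04), and Gli1, a hedgehog target, was at 0.68 (0.27 to 1.08) and 0.17 (-0.17 to 0.53). Of genes of embryonic mesenchyme, 1 of 11 was higher (Tbx3, 1.13, and 0.02 with class weighted) and 1 lower (Dlk1, -1.94) in the LI graft, and 0 of 12 in the small intestinal one. One cell supplied 63.6% of the Dlk1 UMIs.

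Of the lineage lists, the 7 FB markers had medians of -0.44 and -0.96, with 0 and 2 of them 2-fold lower. Dpt stayed past 2-fold in the SI graft with class weighted (-1.02). All 7 pericyte genes were above 0 in both grafts (medians 1.20 and 1.13, 4 past 2-fold in each), with Rgs5 at 1.94 and 0.60. With class weighted they lay between -0.48 and 0.94. PDGFRAhi FB genes had medians of 0.62 and 0.68, with 2 of 7 and 0 of 8 past 2-fold. The 2, Bmp3 and Bmp7, were at 0.43 and 0.31 with class weighted. Genes of CD81+ FB were lower, 3 of 6 and 5 of 6 past 2-fold (medians -1.03 and -1.50), among them Grem1, the antagonist of BMP signals, at 147 against 442 CPM (-1.55) and 293 against 683 CPM (-1.21). Adventitial genes were lower too, 1 of 4 and 4 of 4 past 2-fold (medians over all 5 listed -0.81 and -1.77), with Pi16 at 210 against 414 CPM (-0.96) and 41.2 against 191 CPM (-2.08). Weighted by class, Grem1 stood at -0.98 and -0.91 and Pi16 at -0.37 and -1.59. Of the CD81+ FB genes, Rspo1 (-1.03) alone in the LI graft and C3, Rspo1 and Cd34 (-1.15, -1.98 and -1.30) in the SI graft were then past 2-fold, Cd81 itself was at 0.02 and -0.81, and the adventitial gene called in the LI graft, Scara5, was at -0.85. All 4 measured adventitial genes stayed past 2-fold in the SI graft with class weighted, Scara5 at -1.59, Cd55 at -1.26 and Ly6c1 at -1.72 beside Pi16. The lists of Fgfr2 FB and of MHC class II FB had medians of -0.23 and -0.23, and of -0.46 and -1.09, with 3 of 4 genes of the latter 2-fold lower in the SI graft, of which Cd74 (-1.03) stayed past 2-fold with class weighted and H2-Aa (-0.97) and H2-Ab1 (-0.71) did not. SMC genes had medians of 0.33 and -0.68, with 3 of 8 2-fold lower in the SI graft (Des at -0.95 with class weighted), and ICC genes of 0.20 and 0.13.

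Beyond the lists, the genes most separated in both grafts with depth and class weighted were again of the cycle. On the higher side were Pbk, a mitotic kinase, at 145 against 0.14 CPM in the LI graft and 120 against 0.185 CPM in the SI graft, Aspm, a spindle pole protein, at 137 against 0.622 CPM and 88.7 against 0.315 CPM, Esco2, the cohesin acetyltransferase of S phase, at 118 against 0.121 CPM and 70.4 against 0.105 CPM, and 2810417H13Rik, which encodes a PCNA-associated factor, at 326 against 0.41 CPM and 277 against 0.96 CPM. Fam64a, Ckap2, Tacc3 and Sgol2a followed, with class-weighted ratios of 3.79 to 4.83. The histone genes Hist1h1b, Hist1h2ae, Hist1h3c and Hist1h2an were higher by 3.77 to 5.99. Their copies are close to identical and their transcripts largely lack poly(A) tails, so single members are uncertain.

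The genes most separated on the lower side included secreted proteins and enzymes. CPM values here are weighted by depth alone, and the ratios in brackets by class as well. Igfbp3, an insulin-like growth factor binding protein, was at 77.7 against 203 CPM in the LI graft and 46.4 against 76.7 CPM in the SI graft (class-weighted -1.44 and -1.46). By depth alone its ratios were -1.33 and -0.67, and in the SI graft 0.1 without likely doublets. Sat1, which breaks down polyamines, was at 332 against 672 CPM and 308 against 830 CPM (-1.09 and -1.28). Apoe, a lipid carrier, was at 404 against 696 CPM and 299 against 1412 CPM (-0.96 and -1.82), and Ogn, the proteoglycan osteoglycin, at 318 against 519 CPM and 156 against 403 CPM (-0.97 and -0.98). The others were Pcsk5, Fmo2, Abi3bp, Rrad, Mustn1, Rasl11a, Gstm1 and Hk2, at class-weighted ratios of -0.84 to -1.72. By depth alone, Mustn1 was at -0.03 (-0.24 to 0.18) and Rrad at -0.24 (-0.47 to -0.02) in the LI graft, and at -0.80 and -0.79 in the SI graft. Without likely doublets both were above 0 in the LI graft. No one of them was measured apart from the cells chosen by the rule, so they describe the matched cells among these 512. The class-weighted ratios leave out 2 LI graft cells and 14 SI graft cells that had no match.

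Cycling cells carried the Hox genes of their graft's region. Hox genes of paralogue groups 9 to 13, which pattern the hindgut, summed to 329 CPM (304 to 357) in cycling cells of the LI graft and 10.4 CPM (7.47 to 14.1) in those of the SI graft, and to 325 and 8.30 CPM in non-cycling cells. Groups 1 to 8 summed to 232 and 502 CPM in cycling cells, against 254 and 534 CPM in non-cycling cells. At least 1 UMI of groups 9 to 13 was found in 80.6% of cycling cells of the LI graft and 8.72% of the small intestinal one.

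Each library held cells with Xist, the RNA of the inactive X of females, and cells with Y-linked genes. In the LI graft 1.95% of cells with Xist alone (154 of 7879) and 1.59% of those with a Y-linked UMI alone (14 of 882) were cycling. In the SI graft 2.67% (115 of 4305) and 6.62% (125 of 1887) were, so the Xist-positive cells of the grafts lay closer together than the Y-positive cells did. Calling a cell Y-positive takes depth, with a median of 7424 UMIs against 5328 in the SI graft, and after thinning the shares were 3.50% (2.71 to 4.45%) and 1.27% (0.950 to 1.66%). For the LI graft they were 0.586% (0.191 to 1.36%) of Y-positive and 1.33% (1.08 to 1.62%) of Xist-positive cells, the opposite order. Pericytes of the SI graft were cycling in 17% of Y-positive (38 of 223, 12.3 to 22.6%) and 5.70% of Xist-positive cells (18 of 316, 3.41 to 8.85%). How many embryos gave each library is not given in the sources used here, so sex and embryo cannot be told apart.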

How the data were processed

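Stromal cells sorted from 1 LI graft and 1 SI graft library were profiled by droplet RNA sequencing. The authors deposited UMI counts per gene and barcode, made per the labels with Cell Ranger 3.1.0 and the mm10 genome, and the kit used for each library is not given in the sources used here. Libraries totalled 63348069 (LI graft) and 54918006 (SI graft) UMIs over all barcodes. With 1 library per graft no test was possible, and intervals are exact 95% ones (Clopper-Pearson for shares, a binomial split for ratios) that cover counting error only.

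Members and lists were chosen with earlier results of these data known. Cells with fewer than 500 genes or over 10% mitochondrial UMIs were left out. Counts were analysed in Python 3.11.15 with numpy 2.4.6, scipy 1.17.1, pandas 2.3.3 and scanpy 1.11.5. Non-cycling cells were clustered (2000 variable genes without cell cycle genes, 30 principal components, 20 neighbours, Leiden resolution 0.8, leidenalg 0.10.2) and named by markers. Ratios compared pooled CPM weighted over bins of 0.5 log2 UMIs, with 5 CPM added, and in a further version also by class. Genes named beyond the lists had at least 50 CPM on 1 side and a UMI in at least 20% of its cells in both libraries, with non-cycling cells weighted by depth and class (weighted by depth alone, Igfbp3 was found in 16.2% of them in the SI graft), and were the 12 with the largest class-weighted ratios in each direction. Scrublet's own threshold marked 0 and 2 barcodes and was taken not to have worked, so doublets were not removed and a fixed rate served as an alternative. The ratio code was tested on simulated data.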

Additional observations from a re-analysis of the deposited data

Results flagged for a closer look

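The share of cycling cells was flagged where it was set apart by the sex markers of the cells, and a difference between grafts in this contrast was not tested. Over all stromal cells, 1.95% of Xist-positive and 1.59% of Y-positive cells of the LI graft were cycling, against 2.67% and 6.62% of the SI graft. In the FB lineage the shares were 1.66% and 1.64% in the LI graft and 2.28% and 5.18% in the small intestinal one. In pericytes they were 6.99% and 5.71%, the latter 2 of 35 cells, and 5.70% and 17%. In PDGFRAhi FB they were 3.77% and 0 of 21 cells in the LI graft, and 4.00% and 10.8% in the small intestinal one.

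Among listed and named genes, 7 had ratios of opposite sign in the grafts with both intervals off 0 and a log2 ratio of at least 0.5 in size in 1 graft, and these differences were not tested. Myh11 (smooth muscle myosin) stood at 0.36 in the LI graft and -0.66 in the small intestinal one, and at -0.29 and -0.62 with class weighted. Actg2 stood at 0.80 and -1.79 (class-weighted 0.73 and -1.02), with 24.3% of its LI graft UMIs in 1 cell. Within classes of the SI graft, not matched for depth, Actg2 was lower in cycling SMC (3697 against 5054 CPM). It was higher in cycling FB (255 against 45.8 CPM), pericytes (676 against 319 CPM) and the unnamed cluster (668 against 270 CPM). Des (desmin) stood at 0.31 and -1.42 (-0.42 and -0.95), and Mylk (myosin light chain kinase) at 0.57 and -0.37 (0.11 and -0.22). Cdkn1a stood at 0.28 and -0.61 (0.07 and -0.92), and Nhp2, a ribosome biogenesis gene, at -0.38 and 0.85 (-0.12 and 0.80). Ifit1, an interferon response gene, stood at 0.50 and -0.62 (0.67 and -0.61), with 63.9% of its LI graft UMIs in 1 cell. With class weighted, Myh11 and Des had the same sign in both grafts, and the LI graft intervals of Mylk (-0.03 to 0.25), Cdkn1a (-0.09 to 0.22) and Nhp2 (-0.37 to 0.11) included 0, so 2 of the 7, Actg2 and Ifit1, kept both intervals off 0 on opposite sides.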

How the results depend on the processing

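No paired analysis was possible because each graft had 1 library. The share of cycling cells moved with the rule and with depth. In the LI graft it was 1.46% with 3 markers, 8.82% with 1, 1.55% without likely doublets, 1.27% and 1.02% thinned to 2000 and 1000 UMIs, and 1.59% in Y-positive cells. In the SI graft it was 2.33% with 3 markers, 12.6% with 1, 3.39% without likely doublets, 2.77% with a second marker set, 1.97%, 1.35% and 3.20% thinned to 2000, 1000 and 4000 UMIs, 3.25% when 2 further G2 and M genes were required, 2.67% in Xist-positive and 6.62% in Y-positive cells. The FB share of cycling cells was 86.9% (LI graft) and 28.7% (SI graft) when all cells were clustered together, 22.5% and 17.8% by the highest marker score, which called only 39.1% and 46.3% of non-cycling cells FB, and 49.8% in the SI graft at resolution 1.6. The pericyte to FB ratio was 1.21 and 11.9 clustered together and 2.51 and 2.01 with all mural cells merged, and in the SI graft 2.36 at resolution 0.4 and 4.43 by marker score. Among Y-positive cells of the LI graft thinned to 2000 UMIs, 0% of pericytes (0 to 10.6%) and 0.698% of FB were cycling. The cause of these moves was not tested. Between 108 and 118 cell cycle list genes were past 2-fold under every setting. Of 480 values of the named genes under other settings, 107 moved. Ratios below 0 turned above it for Mustn1 in the LI graft (0.03 with 3 markers and 0.12 without likely doublets) and, without likely doublets, for Rrad in the LI graft (0.01) and Igfbp3 in the SI graft (0.10). Some alternatives, such as the sex of cells, were chosen after seeing the data. With 6 to 44 cycling cells in the smaller classes, depth and cell number limit their shares.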
